A study of Mus musculus with 12 samples.

Results

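Complement is a cascade of plasma and tissue proteins that tags targets for uptake and draws in leukocytes. C1q, built from the A, B and C chains that C1qa, C1qb and C1qc encode, opens the classical pathway by binding antibody complexes, and macrophages and dendritic cells are its main source. The pathway leads to C3, the central component, which factor B (Cfb) amplifies through the alternative pathway. The cleavage products C3a and C5a act on cells through the receptors C3ar1 and C5ar1. The 7 genes C1qa, C1qb, C1qc, C3, Cfb, C3ar1 and C5ar1 are described here out of 32285 genes counted in mouse paw epidermis. They were taken by symbol, and the set was chosen by expression values measured in these same libraries. Which of those values decided was not recorded, so neither their levels over cell types nor their differences between diets are independent evidence.

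Single cells were profiled from the glabrous hind paw epidermis of 12 wild-type C57BL/6J mice, with 1 library per mouse and 3 mice in each of 4 groups. Mice were 6 to 8 weeks old at the start and ate, for 10 weeks, a regular diet with 11% of fat (RD) or a high-fat diet with 42% (HFD), so that they were 16 to 18 weeks old at collection. Each sex was thus split by diet into 2 groups, and no group received a drug. The study used this diet as a model of painful diabetic neuropathy, and the comparison of HFD with RD asks which transcripts differ in the epidermis of mice on that diet. Libraries held 134449247 to 194673581 UMIs (unique molecular identifiers, each counting 1 captured transcript), and 62147 male and 64228 female cells passed the filters. Any 2 libraries shared at most 59 barcodes among these cells, and at most 0.583% of those of the smaller library. The file headers name Cell Ranger 6.1.0 for males and 7.2.0 for females, so sex and software version cannot be told apart.

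Langerhans cells, the resident antigen-presenting cells of the epidermis, were found by clustering. The cluster held all 12 markers listed for them in both sexes, among them Cd207 (langerin) at 4386 ± 167 CPM in males (mean ± SD, n = 6 libraries), where CPM is the UMIs of a gene per 1000000 UMIs of the class. A cell entered the LC-like class when 15 keratin genes made up at most 0.5% of its UMIs. This kept 1061 of 1343 male and 1825 of 2184 female cells, which is few rather than 0 keratin transcripts. T cell-like cells numbered 192 in males and 270 in females. The other cells were keratinocytes, in 8 male and 7 female stages from basal to terminally differentiated.

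One library stood apart. In male HFD replicate 2, 7 of 147 LC-like cells each carried 29 to 90 UMIs of 7 macrophage genes (Mrc1, Cd163, F13a1, Folr2, Pf4, Lyve1 and Ms4a7) and no UMI of Cd207 or of Cd74, the MHC class II invariant chain. A cell with at least 5 such UMIs is called a macrophage-marker cell here, a limit set after the data were seen. Female RD replicate 3 held 1 such cell, with 94 marker UMIs, and the other 10 libraries held 0, their LC-like cells carrying at most 4 marker UMIs each. Summed over these 7 genes, the male RD libraries stood at 4.84 to 10.2 CPM, with Mrc1, Cd163, F13a1, Folr2 and Lyve1 at 0. The male HFD libraries stood at 4.49, 645 and 5.62 CPM, with all 7 genes detected in replicate 2 only and those 5 genes at 0 in replicates 1 and 3. In females the sum was 3.49, 2.95 and 43.5 CPM on RD and 2.36 to 2.60 CPM on HFD. Fibroblast markers were at 0 in LC-like cells of every group. Values for LC-like cells include the macrophage-marker cells unless stated, and the levels and diet differences of the C1q chains are also given without them.

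C1qa, C1qb and C1qc lie side by side on the minus strand of chromosome 4 (GRCm38, gene spans from the GENCODE annotation). C1qb spans chr4:136880129-136886187, C1qc chr4:136889804-136893065 and C1qa chr4:136895917-136898803, so the block covers 18675 bases with gaps of 3616 and 2851 bases between neighbours. C3 lies at chr17:57203970-57228136, Cfb at chr17:34856374-34862518, C3ar1 at chr6:122847138-122856161 and C5ar1 at chr7:16246743-16259540, and all 7 are annotated as protein coding. RefSeq promoter windows (GRCm38.p6), from 250 bases before to 50 after the transcript start, were matched for 5 of the 7 genes. The RefSeq start of a window need not be the 5′ end of the GENCODE span, and for C1qc, C3ar1 and C5ar1 it lies inside the span given above. The windows of C1qb (chr4:136886151-136886450, minus strand) and C1qc (chr4:136892865-136893164, minus strand) are shown, as those of the C1q block that were at hand. C1qa stood highest in the same male libraries as these neighbouring chains, as described below, but no window was at hand for it. Capitals mark matches to the searched motifs, and each line reads 5′ to 3′ along the gene.
C1qb: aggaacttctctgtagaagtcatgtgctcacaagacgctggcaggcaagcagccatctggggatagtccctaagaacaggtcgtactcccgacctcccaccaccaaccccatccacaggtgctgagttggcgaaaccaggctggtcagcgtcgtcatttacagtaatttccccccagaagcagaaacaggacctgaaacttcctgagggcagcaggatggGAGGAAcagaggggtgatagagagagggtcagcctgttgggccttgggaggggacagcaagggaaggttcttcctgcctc
C1qc: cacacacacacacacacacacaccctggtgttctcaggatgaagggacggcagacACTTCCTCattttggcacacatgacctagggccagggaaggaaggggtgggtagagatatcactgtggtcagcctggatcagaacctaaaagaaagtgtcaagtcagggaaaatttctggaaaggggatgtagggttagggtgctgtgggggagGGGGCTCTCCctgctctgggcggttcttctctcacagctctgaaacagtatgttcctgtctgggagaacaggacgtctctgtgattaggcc

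Motifs were searched on both strands. The window of C1qb held the PU.1 core GAGGAA, its first base 30 bases before the start, as did 28.3% of all 32851 promoter windows. PU.1 is a transcription factor of myeloid cells. The window of C1qc held the longer PU.1 motif GAGGAAGT on the opposite strand, starting 195 bases before the start and overlapping its own core match, as did 3.20% of windows. It also held an NF-kB consensus, named after the inflammatory transcription factor, 41 bases before the start used here and within the GENCODE span, as did 4.51% of windows. Among the other members, C3ar1 held the AP-1 motif TGANTCA (7.81% of windows) and C5ar1 the interferon regulatory factor motif GAAANNGAA (8.56%). The GAS motif TTCNNNGAA (8.30%), the MAF motif TGCTGAC (4.67%) and the C/EBP motif TTGCGCAA (0.183%) were in none of the 5 windows. A match describes the letters in these windows only.

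The C1q chains were transcripts of LC-like cells. Males gave 660 ± 120 CPM of C1qa, 152 ± 70.1 CPM of C1qb and 60.4 ± 50.9 CPM of C1qc (SD, n = 6 libraries), and females 170, 24.0 and 18.3 CPM. Without macrophage-marker cells the means were 637, 128 and 41.6 CPM in males and 169, 23.2 and 17.6 CPM in females. Because UMIs count the 3′ ends of transcripts, levels of different genes were compared without a length term. Of all C1qa UMIs in kept male cells, 2835 of 3478 (81.5%) came from LC-like cells and another 544 from LC-like cells above the keratin limit. In females, 2013 of 2377 (84.7%) did. T cell-like cells had 0 UMIs of any C1q chain in 192 male and 270 female cells, which allows a share of cells with a UMI of up to 1.56% and 1.11%, by counting error alone. At median depths of 953 to 4455 UMIs per T cell-like cell this limits cells with a UMI and not cells that express the gene.

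Keratinocyte stages held almost none. In males C1qa was highest in terminally differentiated keratinocytes, the outermost living layer, at 0.759 ± 0.563 CPM (SD, n = 6), and the LC-like level was 870 times as high. In females that class held 13 C1qa UMIs, 8 of them in 1 cell of HFD replicate 2, which stood at 3.19 CPM against 0 to 0.941 CPM in the other libraries. Over all stages C1qa totalled 99 male and 50 female UMIs, C1qb 20 and 7, and C1qc 12 and 6. In male keratinocyte stages C1qa stood at 0.526 to 3.68 UMIs per 100 UMIs of Cd74, against 2.52 in LC-like cells. In females the stages gave 0.370 to 2.77, against 0.789 in LC-like cells. How far free RNA or attached Langerhans cells supply these keratinocyte UMIs was not tested.

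**Figure D1:**
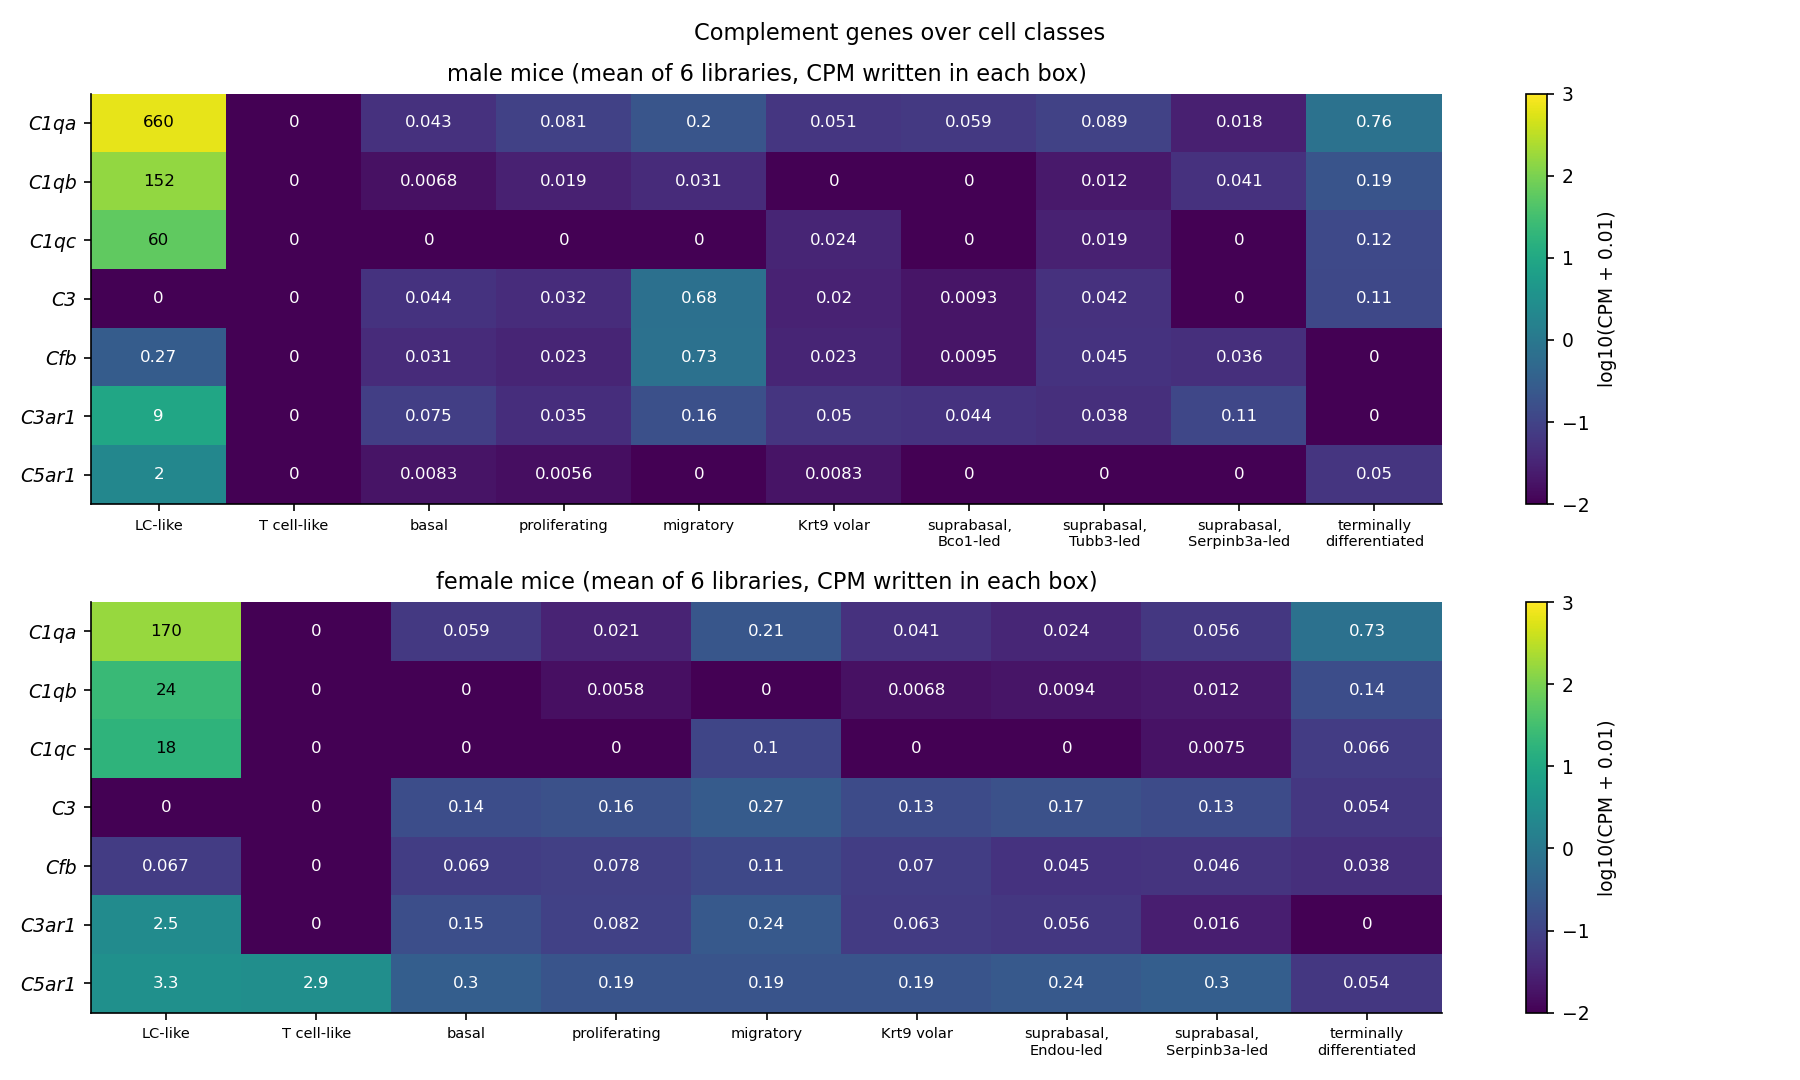
Mean level of the 7 complement genes in each cell class, males above and females below, in CPM (written in each box, mean of 6 libraries); the colour is log10(CPM + 0.01). The C1q chains are bright in the LC-like column and near 0 in T cell-like cells and keratinocyte stages, with LC-like cells above the keratin limit left out, while C3 and Cfb stay below 1 CPM in every class.

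C1qa, the A chain, was the most abundant member. In male RD libraries 1 to 3 it stood at 521, 648 and 599 CPM in LC-like cells, and in male HFD libraries at 779, 829 and 585 CPM. In female RD libraries it stood at 180, 150 and 141 CPM, and in female HFD libraries at 161, 200 and 187 CPM. The diets overlapped in both sexes, and every male library was above every female one. Group means were 589 ± 64.2 CPM for male RD and 731 ± 129 CPM for male HFD (685 ± 96.8 CPM without macrophage-marker cells), and 157 ± 20.2 CPM for female RD and 183 ± 20.4 CPM for female HFD (SD, n = 3).

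C1qb, the B chain, ranged more widely. Male RD libraries gave 91.3, 124 and 108 CPM and male HFD libraries 184, 280 and 122 CPM. Replicates 1 and 2 on HFD were above all 3 on RD, and replicate 3 lay within the RD range. Female RD libraries gave 28.9, 17.0 and 27.3 CPM and female HFD libraries 23.4, 30.3 and 16.9 CPM, which overlap. The male means were 108 ± 16.2 and 195 ± 79.3 CPM on RD and HFD (148 ± 32.3 CPM on HFD without macrophage-marker cells), and the female means 24.4 ± 6.50 and 23.5 ± 6.68 CPM (SD, n = 3).

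C1qc, the C chain, did not overlap between the male diets. Male RD libraries gave 24.3, 42.0 and 32.3 CPM and male HFD libraries 56.9, 162 and 44.9 CPM. All 3 HFD libraries were above all 3 RD libraries, with replicate 2 far above the rest. The same separation was seen for 6.85% of the 10220 genes with at least 10 UMIs in male LC-like cells, and C1qc was not called by the test across all genes described below. The median mitochondrial share of UMIs over all barcodes of a library did not overlap between these groups either, at 3.09, 3.15 and 3.40% on RD and 3.62, 3.68 and 3.48% on HFD, and its part in the C1qc difference was not tested. Nor was that of the mast cell list, where Kit was the 1 gene of 5 detected and separated the male diets the same way, at 28.0 to 38.8 CPM on RD and 45.5 to 64.4 CPM on HFD. The mast cell markers Cpa3, Mcpt4, Fcer1a and Tpsb2 were at 0 in LC-like cells of every group. Without macrophage-marker cells the groups still did not overlap, at 32.9 ± 8.84 CPM on RD and 50.4 ± 6.07 CPM on HFD (SD, n = 3), as was so for 6.92% of 10166 genes. Female RD libraries gave 19.96, 11.8 and 21.5 CPM and female HFD libraries 22.2, 20.3 and 13.7 CPM, with overlap.

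**Figure D2:**
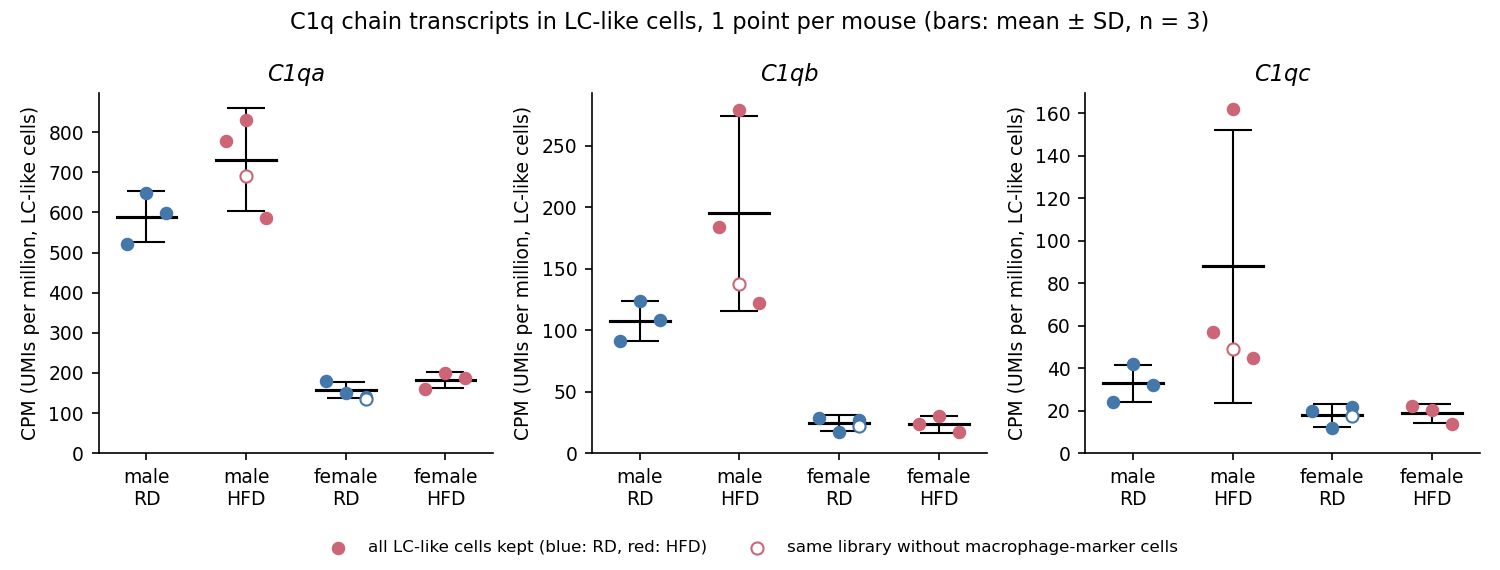
Levels of C1qa, C1qb and C1qc in LC-like cells in CPM, 1 filled point per mouse with the group mean and SD (n = 3); open circles show a library after its macrophage-marker cells were left out. In male HFD replicate 2, C1qb drops from 280 CPM and C1qc from 162 CPM to values near the other male HFD libraries, while female groups overlap.

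The diet difference was tested on UMI sums per library with edgeR's quasi-likelihood test, adjusted over all genes by the Benjamini-Hochberg method. In male LC-like cells 13 of 5978 genes passed an adjusted p of 0.05 (0.217%), and in female LC-like cells 91 of 9215 (0.988%). C1qa, C1qb and C1qc were deep enough to be tested and 0 of the 3 were called in either sex. In males the log2 fold change (HFD over RD) was 0.30 ± 0.14 for C1qa, 0.83 ± 0.23 for C1qb and 1.37 ± 0.38 for C1qc (± SE), with edgeR adjusted p of 0.605, 0.245 and 0.258 and unadjusted p of 0.0460, 0.00169 and 0.00194. Without macrophage-marker cells the log2 fold changes were 0.20, 0.44 and 0.59, with edgeR adjusted p of 0.742, 0.507 and 0.542.

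Single libraries moved these male estimates. Without male HFD replicate 2, C1qb stood at 0.48 and C1qc at 0.60 on the log2 scale. Without male HFD replicate 3, C1qb rose to 1.10 and passed, with an edgeR adjusted p of 0.0218. With no filter on low counts, C1qb and C1qc both passed, at edgeR adjusted p of 0.000449 and 2.62e-06. These fits kept the macrophage-marker cells and were not run without them. In male HFD replicate 2 those cells held 52.8% of the C1qb and 70.9% of the C1qc UMIs. The number of genes called over all genes also rose with no filter, as given below.

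In females the log2 fold change was 0.20 ± 0.12 for C1qa, -0.09 ± 0.23 for C1qb and 0.04 ± 0.24 for C1qc, with edgeR adjusted p of 0.541, 0.920 and 0.973. Without the macrophage-marker cell of RD replicate 3 these were 0.22, 0.0213 and 0.16, with edgeR adjusted p of 0.509, 0.984 and 0.836. The difference between the sexes in the diet effect was tested as an interaction, in which 0 of 8471 genes passed by edgeR (0%), 619 had an unadjusted p under 0.05 and DESeq2 called 9. Male minus female, it was 0.07 for C1qa, 0.90 ± 0.37 for C1qb and 1.31 ± 0.53 for C1qc (log2, ± SE), with edgeR adjusted p of 0.979, 0.618 and 0.618. Without macrophage-marker cells these values were -0.04, 0.39 and 0.40, and without male HFD replicate 2 C1qb stood at 0.53 and C1qc at 0.52. With no filter on low counts the interaction of C1qc kept its value of 1.31 and passed, at an edgeR adjusted p of 0.0159. That fit kept the macrophage-marker cells. Otherwise no difference between the sexes in the diet effect was detected for these genes at this depth.

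The macrophage-marker cells of male HFD replicate 2 were rich in C1q. In sum the 7 cells stood at 3881 CPM of C1qa, 3378 CPM of C1qb and 2623 CPM of C1qc, against 633, 126 and 41.1 CPM in the other 1054 male LC-like cells. They held 108 of the 528 C1qa UMIs of that library's LC-like cells (20.5%), 94 of 178 C1qb UMIs (52.8%) and 73 of 103 C1qc UMIs (70.9%). The single cell in female RD replicate 3 held 17 of 340, 12 of 66 and 10 of 52.

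**Figure D3:**
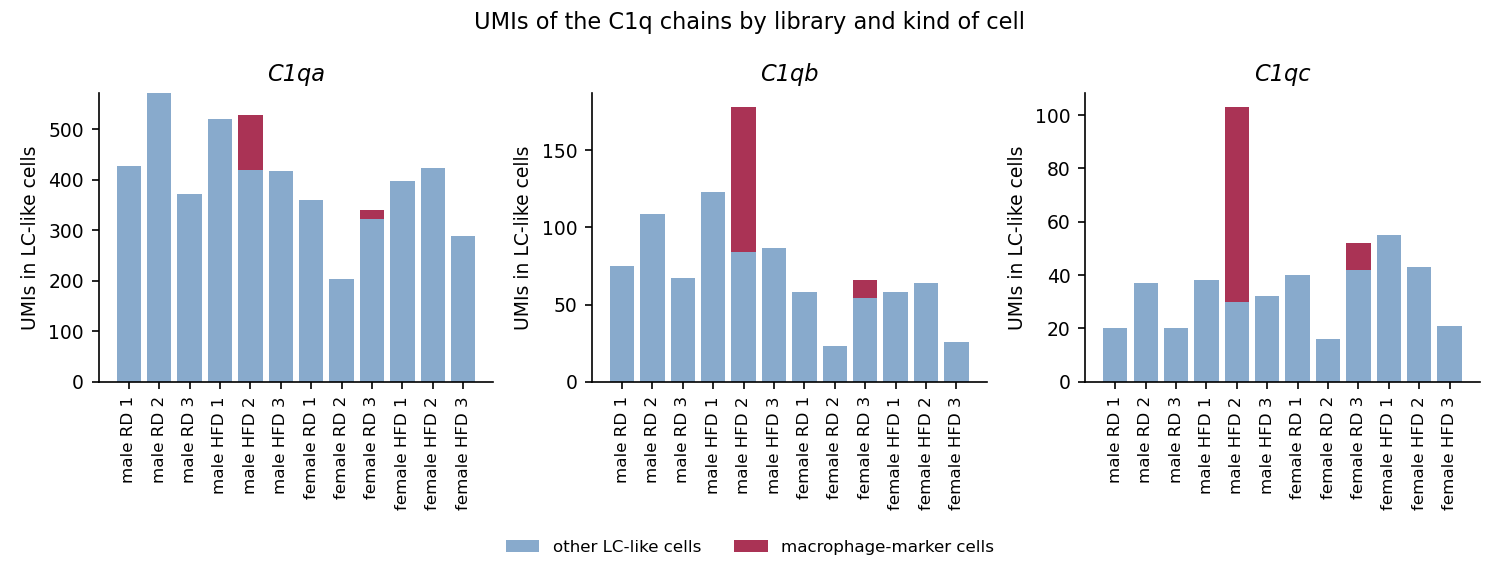
UMIs of each C1q chain in LC-like cells by library, with the UMIs of macrophage-marker cells stacked in dark red on those of other LC-like cells in blue. The dark part is 20.5% of the C1qa bar, 52.8% of the C1qb bar and 70.9% of the C1qc bar in male HFD replicate 2, and is absent from 10 libraries.

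The proportions of the chains are given as a description, with no test. Per 100 C1qa UMIs, male RD LC-like cells held 18.2 ± 0.796 C1qb UMIs and male HFD cells 26.1 ± 6.76, or 21.5 ± 1.91 without macrophage-marker cells (SD, n = 3). C1qc stood at 5.51 ± 0.910 and 11.5 ± 6.94, or 7.37 ± 0.272 without them. With these cells included, replicate 2 was the highest male HFD library for both, at 33.7 and 19.5, while the other 2 gave 20.9 to 23.7 and 7.31 to 7.67. In females C1qb stood at 15.6 ± 4.09 on RD and 12.9 ± 3.37 on HFD, and C1qc at 11.4 ± 3.73 and 10.4 ± 3.29, and the diets overlapped. In RD mice the male level was 3.75 times the female one for C1qa, 4.41 times for C1qb and 1.85 times for C1qc, a description that cannot be told apart from the software version.

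At equal depth of 2000 UMIs per cell, the expected share of LC-like cells with any C1q UMI was 57.5, 67.1 and 66.5% in male RD libraries and 71.5, 69.6 and 65.1% in male HFD libraries. In female RD libraries it was 30.8, 26.5 and 25.2%, and in female HFD libraries 29.3, 34.6 and 30.98%. The diets overlapped in both sexes. The difference was 5.03 percentage points in males (two-sided exact permutation test over libraries, p = 0.3) and 4.11 points in females (p = 0.2), where 3 libraries against 3 cannot give a p below 0.1. Without macrophage-marker cells the same test gave 4.49 points (exact p = 0.4) and 4.17 points (exact p = 0.2). In female LC-like cells with 0 keratin UMIs, 7 to 25 per library before thinning, the difference was 0.41 points (exact p = 0.9). Before thinning it was -2.68 points in those cells (exact p = 0.6). Cells under 2000 UMIs were left out, 45 on RD and 10 on HFD in males and 18 and 22 in females. Before thinning the shares were 78.0 ± 6.79% and 86.1 ± 1.97% in males and 51.7 ± 5.66% and 58.7 ± 2.99% in females (SD, n = 3).

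C1qa was more common in LC-like cells that held C1qb. At equal depth it was expected in 72.5 to 85.3% of male LC-like cells with C1qb, by library, and in 49.1 to 62.2% of those without. In females the ranges were 38.9 to 54.0% and 20.4 to 28.8%. The share with C1qc was 5.80 ± 1.40% in male RD and 9.69 ± 2.50% in male HFD libraries (SD, n = 3, two-sided exact permutation p = 0.1, the smallest possible), and 3.27 ± 0.629% and 3.71 ± 0.984% in females. Without macrophage-marker cells the male HFD share was 8.14 ± 0.774% (exact p = 0.1) and the female RD share 3.20 ± 0.593% (exact p = 0.4). An exact p of 0.1 restates only that the male libraries of the diets did not overlap. For shares of cells this was not counted over all genes, and in CPM 6.85% of 10220 genes separated the same way.

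**Figure D4:**
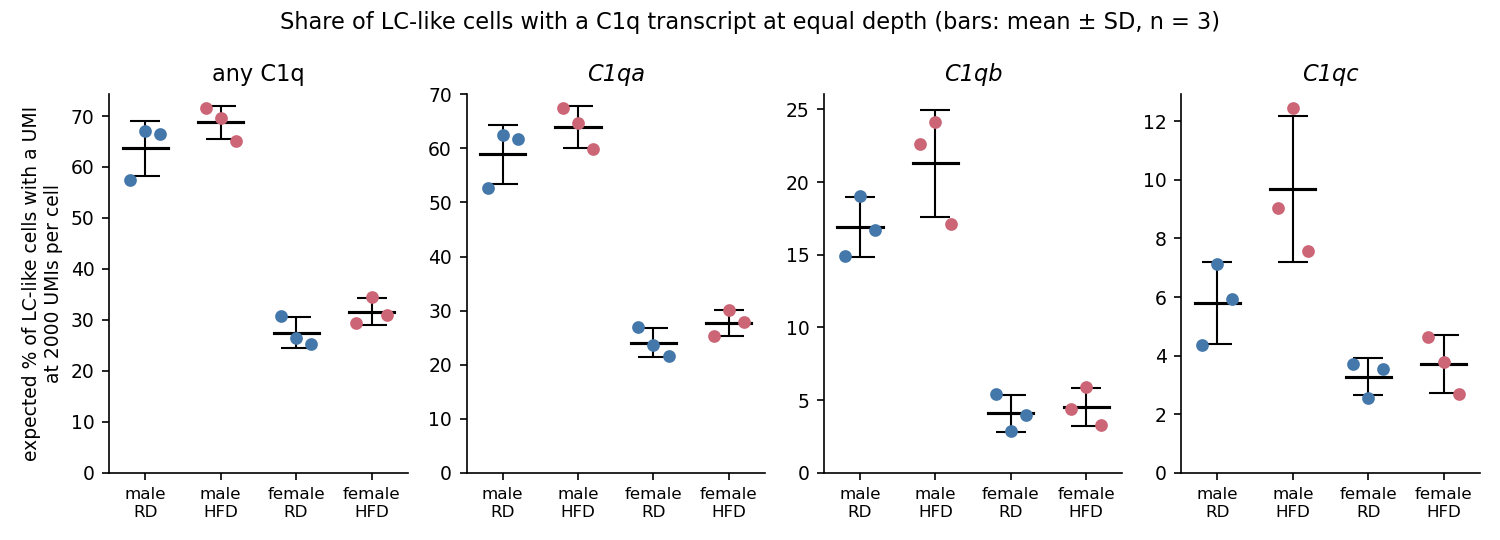
Expected share of LC-like cells with at least 1 UMI of any C1q chain or of each chain when every cell is reduced to 2000 UMIs, 1 point per mouse with group mean and SD (n = 3, blue RD, red HFD). Male shares of any C1q lie between 57.5 and 71.5% and female shares between 25.2 and 34.6%, and the diets overlap within each sex for any C1q.

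C1qa was also read in subgroups of the LC-like cells. These values pool cells over libraries of a sex, without macrophage-marker cells, with exact Poisson 95% intervals that cover counting error only, and no test compared them. In males the main subgroup of 998 cells held 653 CPM of C1qa (628 to 678), the 40 cycling cells 472 (391 to 565) and the 15 cells led by Ccr7, the receptor that guides migration to lymph nodes, 126 (54.2 to 247). C1qb stood at 126, 142 and 110 CPM in the same order, with overlapping intervals, and C1qc at 42.0, 39.3 and 0 CPM, where the interval of the last reached 57.9 CPM and overlapped the others. In females, 3 subgroups without a name held 155 to 209 CPM of C1qa, the 54 cycling cells 85.5 (61.1 to 116) and the 53 Ccr7-led cells 126 (91.3 to 169), and the last 2 intervals overlap. Female C1qb ranged from 19.2 to 28.5 CPM with overlapping intervals, and C1qc stood at 48.5 CPM (28.3 to 77.7, on 17 UMIs) in the Ccr7-led cells and at 12.8 to 19.5 CPM in the other subgroups. The female cycling cells also carried 9 markers of T cells, a class with 0 C1q UMIs, and the part of this in their C1qa level was not tested. Because libraries of a sex differ in C1qa and were pooled, no order of the subgroups is drawn.

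C3ar1, the receptor for C3a, was low in LC-like cells. Male RD libraries gave 9.73, 5.67 and 16.1 CPM and male HFD libraries 1.498, 14.1 and 7.02 CPM, from 38 UMIs in all. Female RD libraries gave 2.00, 1.48 and 2.49 CPM and female HFD libraries 3.23, 3.31 and 2.60 CPM. The 3 female HFD libraries were above the 3 on RD, on counts of 2 to 8 UMIs per library, and the same held for 8.75% of the 12701 genes with at least 10 UMIs in female LC-like cells. Other markers separated these female groups in the opposite direction, namely the summed list of 9 macrophage genes, at 201 to 238 CPM on RD and 177 to 194 CPM on HFD, and Kit of the mast cell list, at 23.6 to 28.2 and 15.6 to 22.6 CPM. On HFD 6 of the 9 macrophage genes were detected, with Cd163, F13a1 and Lyve1 at 0, and the part of these markers in the C3ar1 difference was not tested. The male groups overlapped. In male HFD replicate 2, 6 of the 9 C3ar1 UMIs lay in the 7 macrophage-marker cells, and the male HFD mean was 7.55 CPM with them and 4.48 CPM without. Many C3ar1 UMIs lay outside LC-like cells, with 41 of 83 male and 67 of 102 female UMIs in keratinocyte stages, which hold far more cells. The level there was low. The highest stage, the migratory class, stood at 0.155 CPM in males and 0.239 CPM in females, against 9.03 and 2.52 CPM in LC-like cells. C3ar1 was too low for the test within either sex, and in the interaction its log2 value was -1.004 ± 0.83 (edgeR adjusted p = 0.841). It ranged from -1.80 without male HFD replicate 2 to -0.54 without male HFD replicate 1, and without macrophage-marker cells C3ar1 was too low to be tested there too.

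C5ar1, the receptor for C5a, was lower still in males. Male LC-like cells held 9 UMIs, 3 of them in the macrophage-marker cells, and both male RD replicate 3 and male HFD replicate 1 held 0. Female RD libraries gave 4.99, 5.90 and 2.49 CPM and female HFD libraries 2.02, 2.84 and 1.30 CPM, on 2 to 10 UMIs each, with overlap. Like C3ar1, C5ar1 had most of its female UMIs outside LC-like cells, 175 of 217 in keratinocyte stages, where basal cells stood at 0.298 ± 0.0995 CPM (SD, n = 6) and every library was above 0. In T cell-like cells it had 2 UMIs in females, which carry no level. C5ar1 was not deep enough to be tested in any class within a sex.

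C3, the component on which the pathways converge, was nearly absent. It gave 49 UMIs in 32 of 62147 male cells and 117 UMIs in 112 of 64228 female cells, none in LC-like or T cell-like cells, where 0 UMIs allow up to 0.691 CPM in male and 0.252 CPM in female LC-like cells. Cfb, the protease of the alternative pathway, gave 47 UMIs in 37 male cells and 53 in 53 female cells. Its annotated span overlaps another GENCODE gene on the same strand, so its few counts are uncertain. Both genes had their highest mean over keratinocyte stages in the migratory class, C3 at 0.682 ± 0.958 CPM in males and 0.268 ± 0.176 CPM in females and Cfb at 0.731 ± 0.893 and 0.110 ± 0.174 CPM (SD, n = 6). The male means include cells with fibroblast genes, described below. The female Cfb mean rests on 5 UMIs in 2 of 6 libraries. Female proliferating cells held 13 Cfb UMIs in 5 of 6 libraries, at 0.0775 CPM, so no order of the stages is drawn for it. C3 and Cfb were found together in 2 male cells and 0 female cells.

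In the male migratory class, RD libraries held 1, 0 and 2 C3 UMIs and HFD libraries 4, 13 and 3. Cfb had 0, 0 and 4 UMIs on RD and 2, 12 and 9 on HFD. Replicate 2 on HFD was again the highest, and without it C3 reached at most 4 UMIs. In that library 16 migratory cells carried at least 3 UMIs of 5 fibroblast genes (Col1a1, Col1a2, Col3a1, Lum and Pdgfra) with keratins at most 0.5% of UMIs, a limit set after the data were seen. They held 12 of the 13 C3 UMIs and 9 of the 12 Cfb UMIs, together with 1091 UMIs of Dcn and 8 of Krt14. The other male libraries held 3, 1, 0, 0 and 0 such cells and the females 2 in all, with 0 UMIs of either gene in them. Outside them C3 was at 1, 0, 2, 4, 1 and 3 UMIs over the male libraries, below what a diet comparison can use, and neither gene was tested in any keratinocyte stage. The cell with the most C3, 6 UMIs, was a terminally differentiated keratinocyte of male HFD replicate 1.

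**Figure D5:**
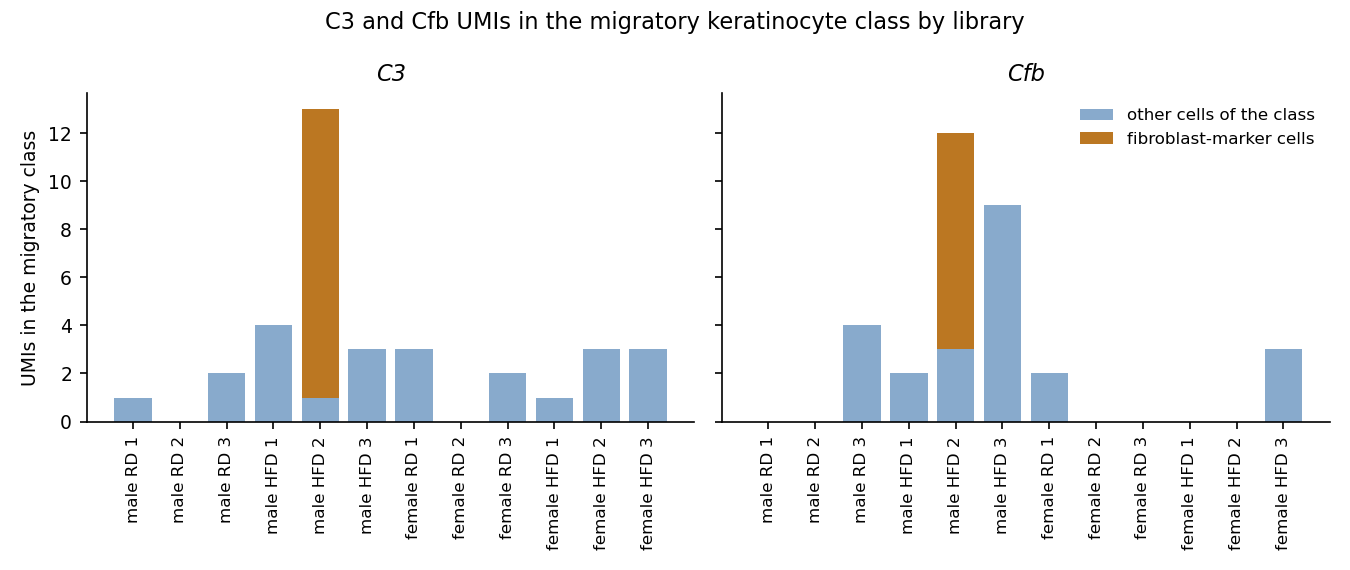
UMIs of C3 and Cfb in the migratory keratinocyte class by library, with UMIs of fibroblast-marker cells in brown stacked on those of other cells in blue. In male HFD replicate 2, brown makes up 12 of 13 C3 UMIs and 9 of 12 Cfb UMIs, and no other library has any.

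Genes alike in pattern were ranked by Pearson correlation of log2(CPM + 1) over 38 points, each the mean of a class in a group, among 9921 genes for C1qb and 9922 for C3 and Cfb. The points share libraries and are mostly near 0 outside LC-like cells, so r describes the LC-like rise. C1qb came closest to Clec5a (r = 0.9962), Cd300c2 (0.9960), C1qc (0.9959), Ms4a6d (0.9935) and Igha (0.9921). For C3 and Cfb, which reached at most 1.22 and 1.26 CPM, the top r were 0.759 (Scd3) and 0.678 (Prg4).

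The rest of the cascade was read from 49 other complement genes, all found in the files, of which 26 reached 1 CPM and 13 reached 10 CPM in some class. In LC-like cells 7 could be tested in each sex and 0 were called, with 3 of 7 higher on HFD in males (median log2 fold change -0.12) and 1 of 7 in females (-0.08), against medians near 0 over all genes. Properdin (Cfp), which stabilises the alternative convertase, was the highest in LC-like cells, at 306 ± 24.8 CPM in male RD and 233 ± 23.6 CPM in male HFD libraries (log2 -0.41 ± 0.13, edgeR adjusted p = 0.348). In females its log2 fold change was -0.43 ± 0.11 (adjusted p = 0.0872). The integrin chain Itgax, part of complement receptor 4, stood at 153 ± 16.8 CPM in male RD LC-like cells, and its female log2 fold change was -0.49 ± 0.12 (adjusted p = 0.0664). The complement-regulating Cr1l was at 52.9 ± 10.3 CPM there.

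Other complement genes were highest in keratinocytes. C1s1, a protease of the C1 complex, stood at 14.1 ± 0.756 CPM and C2 at 3.81 ± 0.242 CPM in female RD basal cells. Cd59a, which blocks the membrane attack complex, stood at 73.0 ± 6.75 CPM in male RD basal cells, C1qbp at 255 ± 13.4 CPM in female HFD basal cells and clusterin (Clu) at 227 ± 6.84 CPM in the male RD Serpinb3a-led suprabasal class (SD, n = 3). Colec12, Hc and C9 reached 8.31, 3.51 and 2.54 CPM in their highest class, the first 2 on 3 and 1 UMIs in T cell-like cells. Serping1, the C1 inhibitor, had 116 UMIs in the migratory class of male HFD replicate 2, of which 107 were in the fibroblast-marker cells.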

How the data were processed

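Epidermal cells of 12 mice were profiled with the 10x 3′ assay. The authors deposited a matrix of raw UMI counts per library, aligned with Cell Ranger to mm10 and not normalized or filtered beyond barcode calling. The submitters' processing notes name Cell Ranger 7.2.0 and Seurat 5.0.0, whereas the file headers give 6.1.0 for males and 7.2.0 for females. Whether intronic reads were counted is not given in the sources used here.

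From these counts, cells with 200 to 6000 genes in males, 500 to 6000 in females and at most 5% mitochondrial UMIs were kept, as in the study's methods. Cells were clustered within each sex on 2000 variable genes without complement genes (10 components, 20 neighbours, leidenalg 0.10.2, scikit-learn 1.9.0) and named from marker lists. Doublets were limited by the upper gene limit and, as an alternative, by leaving out the highest simulated doublet scores. UMIs were summed per library and class and tested with edgeR 4.0.16 in R 4.3.3 (TMM, filterByExpr, quasi-likelihood test, Benjamini-Hochberg over all genes, threshold 0.05), with DESeq2 1.42.0 as an alternative. Sums per library replaced the per-cell test of the study because cells of 1 mouse are not independent. Shares of cells with a UMI are expected values at 2000 UMIs per cell. Intervals and limits cover counting error only. LC-like cells gave 619268 to 2474053 UMIs per library, so a gene at 0 could lie at up to 1.21 to 4.84 CPM. The fits were also run on simulated counts, with the same dispersion set for every gene. That run held no outlying library like male HFD replicate 2, and its outcome is not reported here.

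The members and lists were chosen with earlier results of these data known. Named besides the 7 members were, among the other complement genes, those called in a diet comparison and the 2 highest in each role, plus the 5 genes most alike to C1qb, C3 and Cfb in pattern. Some of the genes this rule names are not reported here. Itgam and Serping1 were added, and the matches for C3 and Cfb shortened to the best, after their values were seen. No RefSeq promoter was at hand for C1qa and Cfb.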

Additional observations from a re-analysis of the deposited data

How the results depend on the processing

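Across the other settings tried and the removal of macrophage-marker cells, which was added after seeing the data, 0 members were called in female LC-like cells, and 3 settings changed a count of called members elsewhere. In the keratinocyte stages and T cell-like cells no member had enough UMIs to enter the main test, so the absence of calls there says nothing about a diet effect. In male LC-like cells the count of called members went from 0 to 2 with no filter on low counts and to 1 without male HFD replicate 3, with a range of 0 to 1 over the left-out libraries, and in the interaction it went from 0 to 1 with no filter (C1qc, log2 1.31, edgeR adjusted p = 0.0159). These settings kept the macrophage-marker cells, with which C1qb of male HFD replicate 2 stood at 280 CPM, against 138 CPM without them. Counts over all genes in these settings follow below, for the left-out libraries as a range only and without the number of genes tested. DESeq2 gave C1qb in males an adjusted p of 0.107 and no adjusted p for C1qc. The causes were not tested. With the replicate number as a block, 1 member was called in males (C1qc, log2 1.37, edgeR adjusted p = 0.0338). The count called over all genes with the block is not reported here, so this call cannot be set against it. Same-numbered libraries deviated with correlations of -0.04, 0.07 and 0.01 in males and -0.11, 0.04 and 0.02 in females, so the numbers were not taken as a pairing. The block changed no other call.

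Some small log2 differences turned sign. In females C1qa went from 0.20 to -0.43 in cells with 0 keratin UMIs, and C1qb from -0.09 to 0.0016 without the highest doublet scores, to 0.0913 with all LC-like cells and to 0.0213 without macrophage-marker cells. Over the left-out libraries female C1qb ranged from -0.32 to 0.0642 and female C1qc from -0.15 to 0.21, and the interaction of C1qa ranged from -0.0471 to 0.22 and was -0.0447 without macrophage-marker cells. The interaction ranged from 0.53 to 1.16 for C1qb and from 0.52 to 1.65 for C1qc over the left-out libraries. Female C1qa kept its sign over them, at 0.10 to 0.31. In males the left-out libraries gave 0.19 to 0.45 for C1qa, 0.48 to 1.10 for C1qb and 0.60 to 1.71 for C1qc, and the difference in the share of cells with any C1q ranged from 1.91 to 6.86 points in males and 2.64 to 5.78 points in females.

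Counts over all genes in LC-like cells moved more. Males went from 13 to 12 with DESeq2, 92 with no filter, 0 with all LC-like cells, 1 without the highest doublet scores and 1 to 20 over the left-out libraries. Females went from 91 to 109, 357 and 5 with DESeq2, no filter and all LC-like cells, and to 18 to 148 over the left-out libraries. The interaction went from 0 to 9 with DESeq2 and 70 with no filter. Male cells with 0 keratin UMIs could not be fitted because male RD replicate 3 held 0 of them. Depth limits C3, Cfb, C3ar1 and C5ar1, which had too few UMIs for a test within a sex, and 3 mice per group limit the exact tests to a p of at least 0.1.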

Other observations

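Itgam, the alpha chain of complement receptor 3 and outside the rule for named genes, was named after its values were seen. It reached 85.5 ± 18.4 CPM (SD, n = 3) in male HFD LC-like cells, macrophage-marker cells included, with a log2 fold change against RD of 0.70 ± 0.20 in males (unadjusted p = 0.00266, edgeR adjusted p = 0.289) and 0.10 ± 0.20 in females (adjusted p = 0.882). The interaction was 0.57 ± 0.30 (log2, edgeR adjusted p = 0.741). In the male Tubb3-led suprabasal class its log2 fold change was 0.71 ± 0.15 (edgeR adjusted p = 0.274). None of these passed the threshold.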
